A study of Mus musculus with 6 samples.

Results

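The genes described here are the mouse integrin subunits (symbols Itga and Itgb), the laminin chains (Lama, Lamb and Lamc) and nephronectin (Npnt), taken by symbol from the deposited table of read counts wherever at least 30 counts were summed over the 6 libraries. Of the 23420 genes in the table, 38 matched by symbol and 37 reached that count. Lama1, with 49 counts, lay just inside the limit, and Itgad, with 27, just outside. Of the 37 members, 36 passed the filter on low counts and were tested, and Lama1 was not. The libraries were made from aortic roots, the short stretch of vessel that leaves the heart and houses the aortic valve, by bulk RNA sequencing. One group of 3 roots was labelled Sost+/+ and the other group of 3 was labelled Sost-/-, a knockout of both copies of the gene for sclerostin, a secreted inhibitor of Wnt signalling. All mice were of a C57BL6/J background and 12 months old, and both groups had been fed a high-cholesterol diet for 8 months from the age of 4 months. No tissue-specific promoter or Cre is named, and the labels count roots without naming animals. The p-values therefore reflect how these roots varied, which may in part be technical.

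The libraries held 37023586 to 48172863 counts each. They are called WT 1 to 3 (labelled Sost+/+) and KO 1 to 3 (labelled Sost-/-), and carry the label and number in the figures. Sost itself gave 354, 621 and 274 counts in the WT libraries and 2284, 1063 and 513 in the KO libraries. Its count was therefore not lower in the libraries labelled Sost-/- (log2 fold change 1.56, SE 0.48, edgeR adjusted p = 0.124). The table counts reads per gene and does not show which stretch of Sost they came from, and the labels do not say what part of the gene was removed. Every direction below is that of libraries labelled Sost-/- against libraries labelled Sost+/+. The roots held heart muscle RNA: the summed level of 20 cardiomyocyte markers was 96842 to 105961 CPM in WT and 66469 to 82018 CPM in KO libraries, where CPM is the count scaled to library size with TMM factors. The summed level of 16 smooth muscle markers was 1577 to 3060 CPM in WT and 4584 to 6796 CPM in KO libraries.

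Integrins are receptors that join the cell's cytoskeleton to the matrix outside it, each built from 1 alpha and 1 beta subunit. The alpha subunit largely sets the ligand: some recognise the RGD motif of proteins such as fibronectin and nephronectin, others bind laminins or collagens, and others serve the contacts of leukocytes. Laminins are trimers of an alpha, a beta and a gamma chain that polymerise into the sheet of the basement membrane, which in the vessel wall lies under the endothelium and around each smooth muscle cell. Nephronectin is a secreted matrix protein best known as the ligand of the integrin made of Itga8 and Itgb1 in the developing kidney. Itga8 is also known as an integrin subunit of vascular smooth muscle.

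The bases upstream of Itga8 and Npnt are printed because this receptor subunit and its ligand had the largest rises among the members. Each line gives 250 bases before the RefSeq start, the outer of 2 for Npnt (GRCm38.p6, the assembly of mm10), 5′ to 3′ on the gene's own strand, which is the minus strand for both. The Itga8 window is chr2:12301945-12302194 and the Npnt window is chr3:132950292-132950541. Capitals mark GC boxes, GGGCGG or its reverse complement.
Itga8: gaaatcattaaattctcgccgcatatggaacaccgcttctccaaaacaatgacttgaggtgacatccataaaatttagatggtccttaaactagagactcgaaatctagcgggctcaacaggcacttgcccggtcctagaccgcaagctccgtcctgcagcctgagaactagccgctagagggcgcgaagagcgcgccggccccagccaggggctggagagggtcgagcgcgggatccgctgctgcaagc
Npnt: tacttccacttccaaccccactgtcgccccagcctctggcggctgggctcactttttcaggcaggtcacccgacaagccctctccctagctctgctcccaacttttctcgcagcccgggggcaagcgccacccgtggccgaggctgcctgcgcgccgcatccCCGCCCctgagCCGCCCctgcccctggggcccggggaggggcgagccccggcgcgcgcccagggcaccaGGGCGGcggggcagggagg
The Npnt window held 3 GC boxes and 74% G or C. The Itga8 window held none and 56.4% G or C. The 3 motifs were searched on both strands in windows of this length for the 24 members that the RefSeq table holds, in 28 windows. The GC box was found for 9 of the 24 members and for 35.4% of all 27025 genes of the table (32.7% of its 32851 windows). The CArG box, known as the binding motif of serum response factor at smooth muscle genes, was found for 2 members, Itgb6 and Lama2, and for 1.62% of all genes (1.47% of windows). CTTTGAT, a form of the motif of the TCF/LEF factors of Wnt signalling, was found for 0 members and for 3.72% of all genes (3.21% of windows). No overlap between motifs arose in the windows printed, and a match is only a match of letters.

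Of the 36 tested members, 5 rose in the libraries labelled Sost-/- and 0 fell (edgeR quasi-likelihood test, Benjamini-Hochberg over all 15096 genes tested, threshold 0.05). Those that rose were the RGD-binding subunit Itga8, its ligand Npnt, the laminin chain Lamc3, the beta subunit Itgb3 and the collagen-binding subunit Itga10. Over all genes tested, 2.18% were called higher and 0.371% lower. By unadjusted p under 0.05, 10 members were higher and 3 lower, against 11.6% and 8.62% of all genes tested. DESeq2 called 7 members higher and 2 lower, against 5.31% and 2.99% of all genes, and limma-voom called 5 higher and 0 lower. The groups did not overlap for 7 members that were higher and 3 that were lower, against 14.3% and 11.1% of all genes tested. Over the whole family the differences went both ways: 19 fold changes were positive and 17 negative, and their median log2 fold change was 0.02, beside 0.0066 over all genes. The calls depended on single libraries. With WT 1 or KO 3 left out, edgeR called 0 members, although 10 and 8 of them had an unadjusted p under 0.05. Without WT 3 it called 1, Lamc3. This loss was not particular to the members. Over all genes, edgeR called 0 higher and 0 lower without WT 1, and 10 and 0 without KO 3. Without WT 3 it called 81 and 37 of all genes, against 329 and 56 with all libraries. Without WT 1, DESeq2 still called 6 members higher and 2 lower (413 and 213 of all genes) and limma-voom 0 (0 of all genes). Without KO 3, DESeq2 called 6 members higher and 0 lower (290 and 86 of all genes) and limma-voom 1 higher (41 of all genes). With robust dispersion in edgeR, Itga8 and Npnt were not called (adjusted p = 0.0534 and 0.0511, with ranges of 2.6e-04 to 0.114 and 5.4e-04 to 0.118 over all alternatives).

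**Figure D1:**
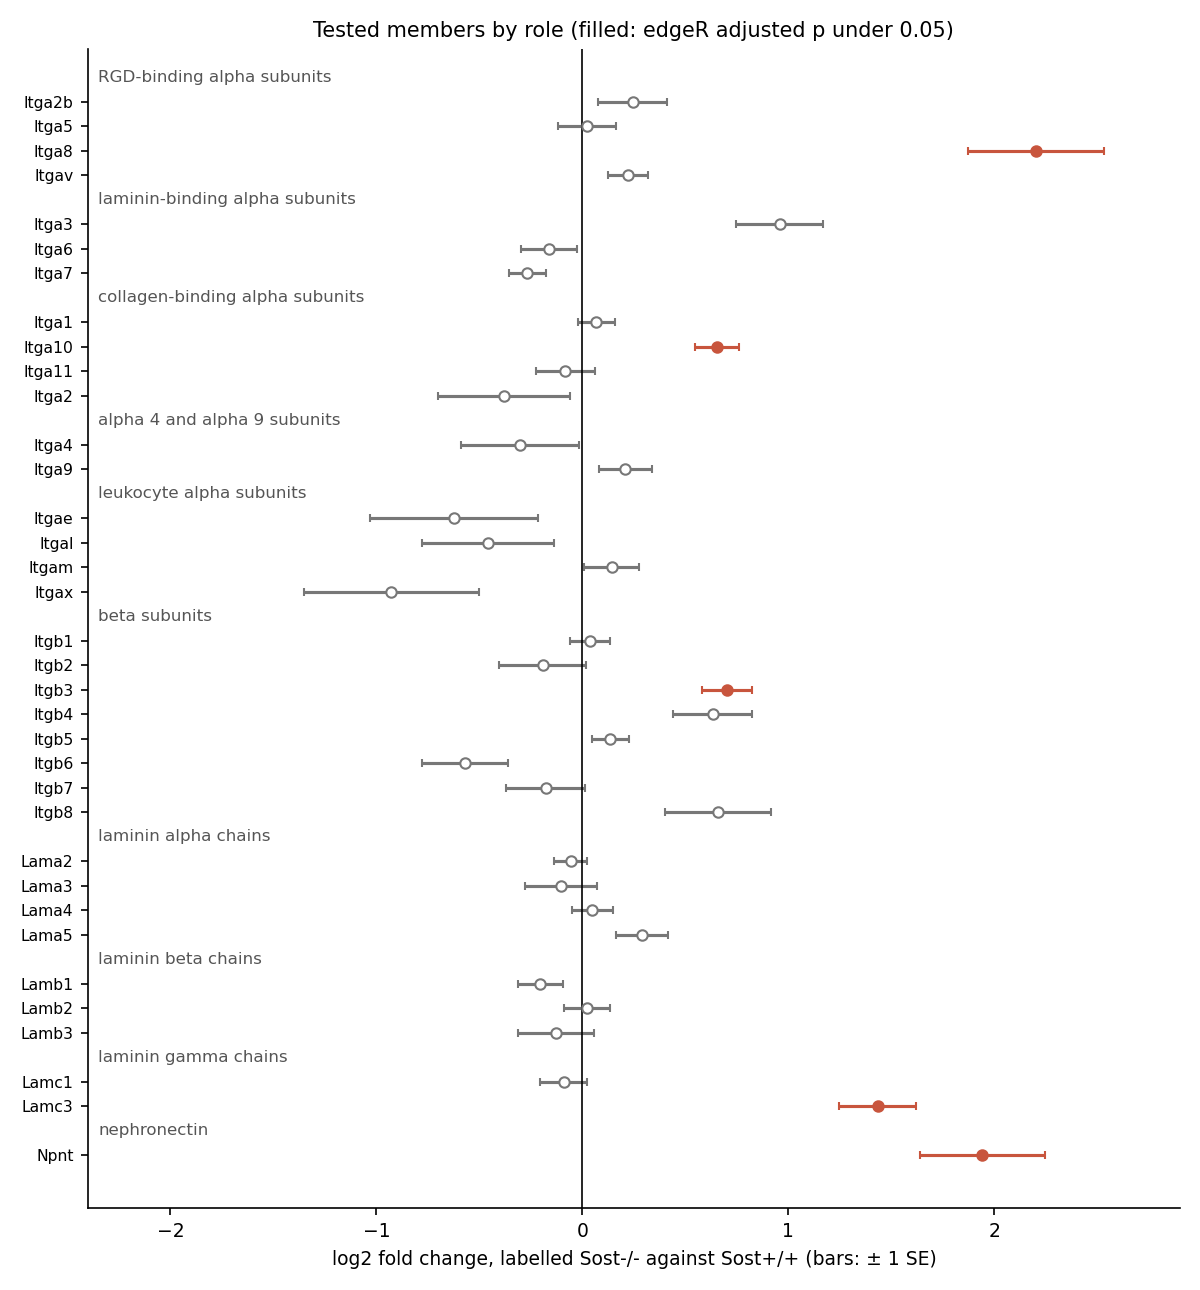
Log2 fold change of 35 of the tested members (x axis, libraries labelled Sost-/- against Sost+/+, bars 1 SE to either side), grouped by role. The 5 filled points passed the edgeR test, and Itga8 and Npnt lie farthest to the right, at 2.20 and 1.94.

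Itga8 had the largest rise. Its level was 31.3, 63.7 and 30.03 CPM in the 3 WT libraries, against 206, 122 and 248 CPM in the KO libraries. The lowest KO library was 1.91 times the highest WT library. Within a group the highest library was 2.12 times the lowest in WT and 2.03 times in KO. The fitted rise was 4.61-fold (log2 fold change 2.20, SE 0.33, edgeR adjusted p = 0.0180). It ran from 1.98 to 2.64 on the log2 scale with single libraries left out. Itga8 (ENSMUSG00000026768.10) lies on chromosome 2 from 12106632 to 12301922, minus strand (mm10, GENCODE M21). Its exons share 372 bases, 5.05% of their length, with the antisense gene E030013I19Rik, which was at 4.80, 8.72 and 3.24 CPM in WT and 26.6, 19.4 and 32.3 CPM in KO libraries (log2 fold change 2.22, SE 0.32, edgeR adjusted p = 0.0152). The strand setting of the counting is not given in the sources used here, so reads in the shared bases cannot be assigned.

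Npnt followed the same course at a lower level. It was at 9.73, 19.2 and 10.2 CPM in WT libraries and at 55.6, 31.9 and 62.6 CPM in KO libraries. WT 2 was again the highest of its group and KO 2 the lowest, and the groups did not overlap. The rise was 3.84-fold (log2 fold change 1.94, SE 0.30, edgeR adjusted p = 0.0194, range 1.75 to 2.33 with single libraries left out). Npnt (ENSMUSG00000040998.18) lies on chromosome 3 from 132881745 to 132950291, minus strand. Set against its receptor subunit in CPM per kb of exon, Npnt stood at 0.455, 0.441 and 0.497 of Itga8 in WT libraries and 0.395, 0.384 and 0.371 in KO libraries. Ligand and receptor transcripts thus rose together, with the ratio lower in each KO library than in each WT library.

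The other RGD-binding subunits did not pass. Itga5, which with Itgb1 forms the main fibronectin receptor, was at 113, 139.8 and 157 CPM in WT and 142.5, 119 and 155 CPM in KO libraries. Its groups overlapped throughout (log2 fold change 0.02, SE 0.14, edgeR adjusted p = 0.946). Itgav, the partner of several beta subunits in vitronectin receptors and in activating latent TGF-beta, was at 45.5, 45.2 and 54.5 CPM against 57.7, 53.4 and 58.1 CPM. KO 2 lay below WT 3, and the difference of 0.22 (SE 0.10) had an edgeR adjusted p of 0.243. Itga2b, the platelet subunit, was at 3.39 to 3.84 CPM in WT and 3.83 to 4.86 CPM in KO libraries (log2 fold change 0.25, edgeR adjusted p = 0.444).

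**Figure D2:**
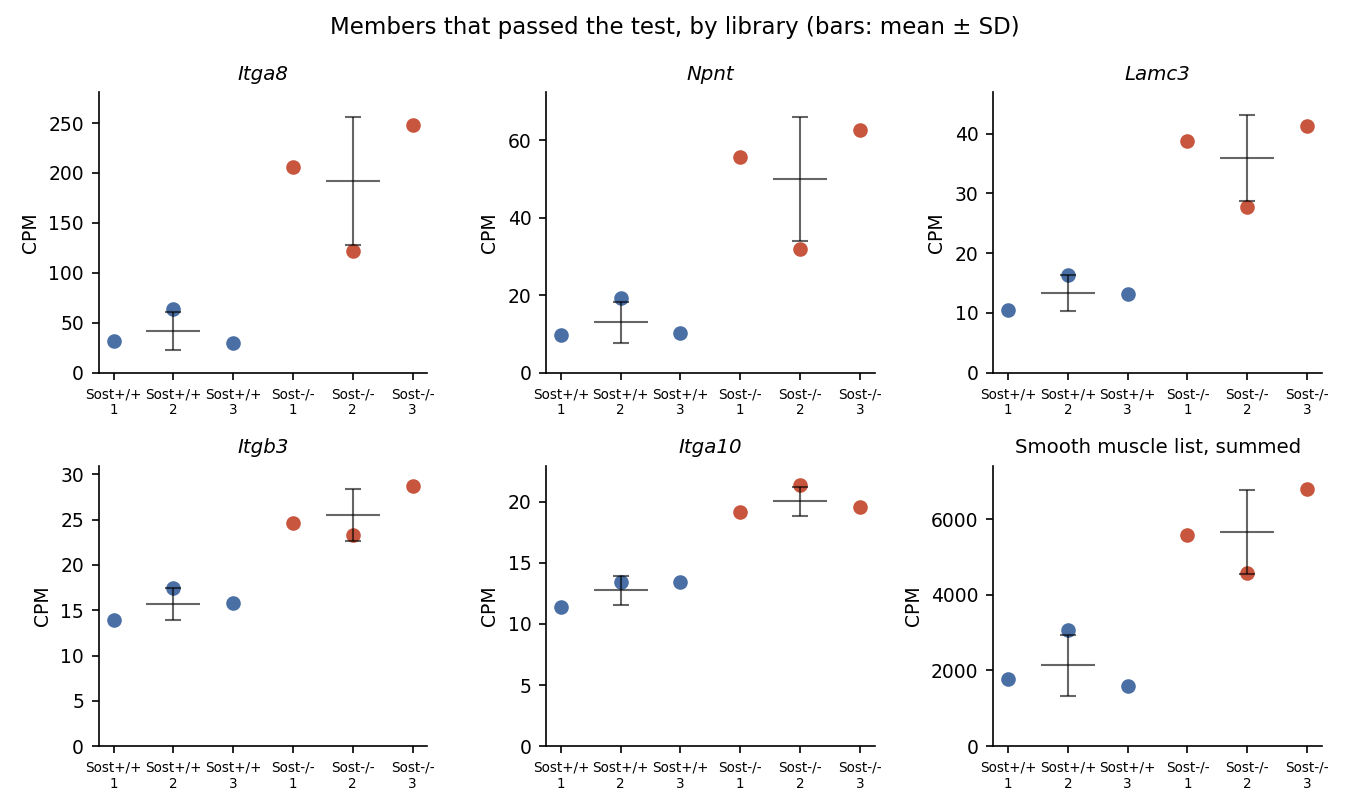
Level in CPM (y axis) of the 5 members that rose and of the summed smooth muscle markers, in each library (x axis), with the mean and SD of each group of 3 as bars. Each KO point lies above each WT point in all 6 panels, and KO 2 is the lowest KO library for Itga8, Npnt, Lamc3, Itgb3 and the smooth muscle sum, but the highest for Itga10.

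Most smooth muscle markers were higher in KO libraries, as these members were. Of the 16 smooth muscle genes, 13 rose and 0 fell (DESeq2 also 13 and 0, limma-voom 13 and 0), with a median log2 fold change of 1.37. Examples were Myh11, the smooth muscle myosin heavy chain, at 208, 427 and 170.1 CPM in WT and 968, 707 and 1096 CPM in KO libraries (log2 fold change 1.78, SE 0.32), and Cnn1, calponin (1.70, SE 0.28). Lmod1 (0.92, edgeR adjusted p = 0.114), Synpo2 (0.12, 0.652) and Myocd (-0.05, 0.868) did not pass, and the groups of Synpo2 and Myocd overlapped. Of the 20 cardiomyocyte genes, 0 rose and 3 fell by edgeR (DESeq2 0 and 12), with a median of -0.41. From lowest to highest the libraries stood in the order WT 3, WT 1, WT 2, KO 2, KO 1, KO 3 both for the summed smooth muscle level and for Itga8. Npnt, Lamc3 and Itgb3 had the same order except that WT 1 and WT 3 changed places. Itga10 had a different order, WT 1, WT 3, WT 2, KO 1, KO 3, KO 2. These members were picked by their difference between the groups, so the order between the groups follows from that choice. The order within a group rests on 3 libraries and is given as a description only. In bulk tissue, more or fewer cells of a type and more or less RNA per cell cannot be told apart, and the part of smooth muscle content in these rises was not tested.

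Per 1000 CPM of the summed smooth muscle markers, a measure chosen after the values were seen, the members parted. Itga8 stood at 17.8, 20.8 and 19.04 in WT libraries and 36.96, 26.6 and 36.5 in KO libraries. Npnt stood at 5.52, 6.27 and 6.46 against 9.97, 6.96 and 9.21. On this scale neither gene's groups overlapped, and both were higher in KO libraries. Lamc3 overlapped, at 5.93, 5.34 and 8.34 against 6.94, 6.05 and 6.07. Itga10 overlapped too, at 6.46, 4.40 and 8.53 against 3.44, 4.67 and 2.88. Itgb3 was lower in each KO library, at 7.89, 5.70 and 10.01 against 4.40, 5.08 and 4.23. This scale restates levels given above and is not a test. Single markers parted as well, around their median log2 fold change of 1.37. Kcnmb1 gave 2.06 and Actg2 2.03, but Synpo2 0.12 and Myocd -0.05, beside 2.20 for Itga8 and 1.94 for Npnt.

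Lists for other cell types were read in the same way. The shares over all genes tested were 2.18% higher and 0.371% lower by edgeR, and 11.6% and 8.62% by unadjusted p under 0.05. By edgeR, no gene passed in either direction among the tested markers of skeletal muscle (8), endothelium (12), macrophages (12), lymphocytes (10), platelets (3) and mesothelium (8). In these 6 lists an unadjusted p under 0.05 was found for 1, 2, 0, 3, 0 and 0 genes that were lower and for 2 macrophage genes that were higher, and DESeq2 called 1 macrophage gene higher and 0 others. By edgeR, 1 gene rose and 0 fell in each of the lists for fibroblasts (12), Schwann cells (10), pericytes (8) and valve interstitial cells with chondrocytes (10). In that order they were Scara5, Prx, Cspg4 and Acan, with log2 fold changes of 0.52, 0.81, 0.92 and 2.20. Cspg4 is also in the list of other laminin receptors below. In the same lists DESeq2 called 4, 2, 2 and 2 genes higher and 0, 0, 0 and 1 lower. By unadjusted p under 0.05, 5, 5, 2 and 3 were higher and 0, 0, 1 and 1 lower. The median log2 fold changes furthest from 0 among these 10 lists were 0.74 for mesothelium, -0.51 for lymphocytes, 0.45 for valve interstitial cells with chondrocytes and 0.34 for Schwann cells. The summed mesothelial level was 26.7 to 51.1 CPM in WT libraries and 26.5, 27 and 134 CPM in KO 1 to 3. KO 3 stood apart there (Upk3b at 39.7 CPM, against 2.79 to 9.69 CPM in the other libraries), and it was also the highest library for Itga8, Npnt, Lamc3 and Itgb3. The part of mesothelial content in those members was not tested. No marker of any list was at 0 in all 6 libraries.

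Laminin-binding subunits differed among themselves. Itga3, which binds laminins of epithelia and vessels, was at 15.002, 26.3 and 20.4 CPM in WT and 41.7, 30.6 and 47.3 CPM in KO libraries. The groups did not overlap, and the log2 fold change of 0.96 (SE 0.21) missed the threshold by little (edgeR adjusted p = 0.0504, DESeq2 4.6e-04). Itga7, the principal laminin receptor subunit of muscle, was at 299.8, 312 and 319.9 CPM in WT and 266, 263 and 244 CPM in KO libraries. All 3 KO libraries were below all WT libraries, with a log2 fold change of -0.27 (SE 0.09) that edgeR did not call (adjusted p = 0.148) and DESeq2 did (0.0275). Summed cardiomyocyte markers were likewise lower in each KO library, and their part in the values of Itga7 was not tested. Itga6, found with Itgb1 or Itgb4 on endothelium and epithelia, spanned 49.7 to 54.7 CPM in WT and 39.6 to 58.2 CPM in KO libraries (log2 fold change -0.16, edgeR adjusted p = 0.543).

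Of the 4 collagen-binding subunits 1 rose. Itga10, known from chondrocytes, was at 11.4, 13.45 and 13.45 CPM in WT and 19.2, 21.4 and 19.6 CPM in KO libraries. The replicates lay close together and the groups did not overlap. The rise was 1.57-fold (log2 fold change 0.65, SE 0.11, edgeR adjusted p = 0.0235). Without WT 1, WT 3, KO 2 or KO 3 the adjusted p was 0.107, 0.0505, 0.0619 and 0.0977, while the log2 fold change stayed between 0.56 and 0.69. Itga10 (ENSMUSG00000090210.7) lies on chromosome 3 from 96645584 to 96664519, plus strand, and 33.5% of its exon bases are shared with the gene model Gm42957 on the same strand. Gm42957 is not among the genes counted. Itga1, Itga11 and the low-level Itga2 had log2 fold changes from -0.38 to 0.07 with overlapping groups. Itga9, which binds tenascin-C among other ligands, was at 112 to 150.1 CPM in WT and 132 to 155 CPM in KO libraries (log2 fold change 0.21, edgeR adjusted p = 0.393).

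Among beta subunits, Itgb1, the partner of Itga8 and of most matrix-binding subunits, stayed within a narrow band. It was at 712, 645 and 638 CPM in WT and 683, 679.7 and 682 CPM in KO libraries. All KO libraries lay inside the WT range (log2 fold change 0.04, SE 0.10, edgeR adjusted p = 0.871). Itgb3, which pairs with Itgav in the vessel wall and with Itga2b in platelets, rose from 13.9, 17.4 and 15.8 CPM to 24.6, 23.3 and 28.8 CPM. The groups did not overlap, and the rise was 1.63-fold (log2 fold change 0.70, SE 0.12, edgeR adjusted p = 0.0248). Summed platelet and megakaryocyte markers were 41.2, 33.5 and 31.3 CPM in WT and 35.0, 45.8 and 46.8 CPM in KO libraries, so these overlapped. Most of that sum was Pf4, at 37.5, 29.7 and 28.5 CPM in WT and 31.5, 43.4 and 43.0 CPM in KO libraries. Only 3 of the 8 markers were high enough to test, and the part of platelet content in Itgb3 was not tested. Itgb3 (ENSMUSG00000020689.4) lies on chromosome 11 from 104608000 to 104670476, plus strand, 2.64 Mb from Sost. Of the other members on this chromosome, Itga2b lies 0.486 Mb from Sost, Itga3 6.89 Mb, Itgb4 14.0 Mb and Itgae 28.8 Mb, and none of these passed the edgeR test (DESeq2 called Itga3 and Itgb4 higher).

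Itgb5, the other broad partner of Itgav, was at 267, 289 and 273 CPM in WT and 293, 318 and 299 CPM in KO libraries. The groups did not overlap but lay close together (log2 fold change 0.14, SE 0.09, edgeR adjusted p = 0.429). Itgb6, an epithelial subunit that activates latent TGF-beta, was at 20.1, 17.4 and 18.0 CPM against 17.2, 8.93 and 11.3 CPM, with KO 1 just under the lowest WT library (log2 fold change -0.57, SE 0.21, edgeR adjusted p = 0.174). Itgb4, the hemidesmosome subunit that pairs with Itga6, was at 10.1, 15.7 and 13.1 CPM against 24.0, 15.7 and 20.6 CPM. KO 2 and WT 2 were alike there (log2 fold change 0.63, SE 0.19, edgeR adjusted p = 0.119, DESeq2 0.0322). Itgb8 was the lowest beta subunit in CPM per kb, at 0.258 ± 0.084 (SD) over the 3 WT libraries and 0.405 ± 0.079 (SD) over the 3 KO libraries, and its test did not pass (log2 fold change 0.66, edgeR adjusted p = 0.202).

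No laminin alpha chain passed the test. Lama2, the chain of muscle basement membranes, was at 168, 161 and 171 CPM in WT and 159, 162 and 159.9 CPM in KO libraries (log2 fold change -0.06, SE 0.08, edgeR adjusted p = 0.728). Lama4, made by endothelium and muscle, was at 135, 158 and 132 CPM against 149.7, 137 and 153 CPM (0.05, SE 0.10, edgeR adjusted p = 0.825). Lama5, the other main chain of vessels, was at 143, 182 and 167 CPM against 225, 172 and 203 CPM, with KO 2 inside the WT range (0.29, SE 0.13, edgeR adjusted p = 0.244). For these 3 genes no call was made by edgeR, DESeq2 or limma-voom. Lama3, an epithelial chain, was at 4.24 to 6.23 CPM over all libraries, and Lama1, an embryonic chain, at 0.0449 to 0.534 CPM, too low to test.

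Of the beta and gamma chains Lamc3 passed, and Lamb1, Lamb2 and Lamc1 did not. Lamb1 was at 140.1, 156 and 131 CPM in WT and 137, 109.9 and 124 CPM in KO libraries (log2 fold change -0.21, SE 0.11, edgeR adjusted p = 0.326). Lamb2, a beta chain of vessels and muscle, was at 573, 700.1 and 628 CPM against 668, 604 and 659 CPM (0.02, SE 0.11, edgeR adjusted p = 0.932). Lamc1, the gamma chain of most laminins, was at 284.98, 348 and 358 CPM against 331, 290.0 and 310.1 CPM (-0.09, SE 0.11, edgeR adjusted p = 0.696). The groups of all 3 overlapped.

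Lamc3, a gamma chain of restricted expression, rose from 10.45, 16.3 and 13.1 CPM in WT to 38.7, 27.7 and 41.3 CPM in KO libraries. Its lowest KO library was 1.70 times its highest WT library. The rise was 2.70-fold (log2 fold change 1.43, SE 0.19, edgeR adjusted p = 0.0133), and it was the member with the smallest p. The log2 fold change stayed between 1.27 and 1.60 with single libraries left out, but without WT 1 or KO 3 its adjusted p was 0.0850 and 0.0545. Lamc3 (ENSMUSG00000026840.14) lies on chromosome 2 from 31887291 to 31946539, plus strand, and 6.27% of its exon bases are shared with the antisense gene Gm13441, which is not among the genes counted. Lamb3, a beta chain of epithelia, gave -0.13 with overlapping groups (edgeR adjusted p = 0.739).

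Levels of different genes were set side by side only in CPM per kb of merged exon, a scale on which a gene with long untranslated exons that go unused reads too low. In WT libraries Itga7 led the alpha subunits at 38.4 ± 1.25 (SD, n = 3), then Itga5 at 27.7 ± 4.51 and Itga9 at 16.3 ± 2.80. Itga6, Itga8 and Itgam came next, at 5.83 ± 0.29, 5.66 ± 2.59 and 5.28 ± 0.72, and did not differ beyond their spread. In KO libraries Itga8 stood at 26.1 ± 8.70, beside Itga7 at 31.9 ± 1.49 and Itga5 at 28.1 ± 3.70, and these 3 did not separate beyond their spread. Itga9, at 18.8 ± 1.51 in KO libraries, did not separate from Itga8 either, and was above it in KO 2 (17.2 against 16.6). Itga8 thus made up 3.93%, 7.11% and 3.01% of the summed alpha subunit level in WT libraries and 19.1%, 13.2% and 22.0% in KO libraries. The share of Itga7 was 31.7% ± 2.53 (SD) over the 3 WT libraries and 22.7% ± 3.12 (SD) over the 3 KO libraries.

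In the integrin beta pool Itgb1 made up 61.3% ± 2.54 (SD) over the 3 WT libraries and 60.2% ± 1.17 (SD) over the 3 KO libraries, and Itgb5 29.3% ± 1.78 and 30.8% ± 0.93. Itgb3 held 1.004% ± 0.13 and 1.56% ± 0.18. Among laminin alpha chains Lama5, Lama4 and Lama2 stood at 14.4 ± 1.73, 11.7 ± 1.18 and 10.2 ± 0.31 CPM per kb in WT libraries, close to one another. Lamb2 made up 87.0% ± 1.03 of the beta chains in WT and 88.7% ± 0.61 in KO libraries. In CPM per kb, Lamc3 stood at 0.0498, 0.0636 and 0.0499 of Lamc1 in WT libraries and at 0.159, 0.130 and 0.181 in KO libraries, with no overlap.

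**Figure D3:**
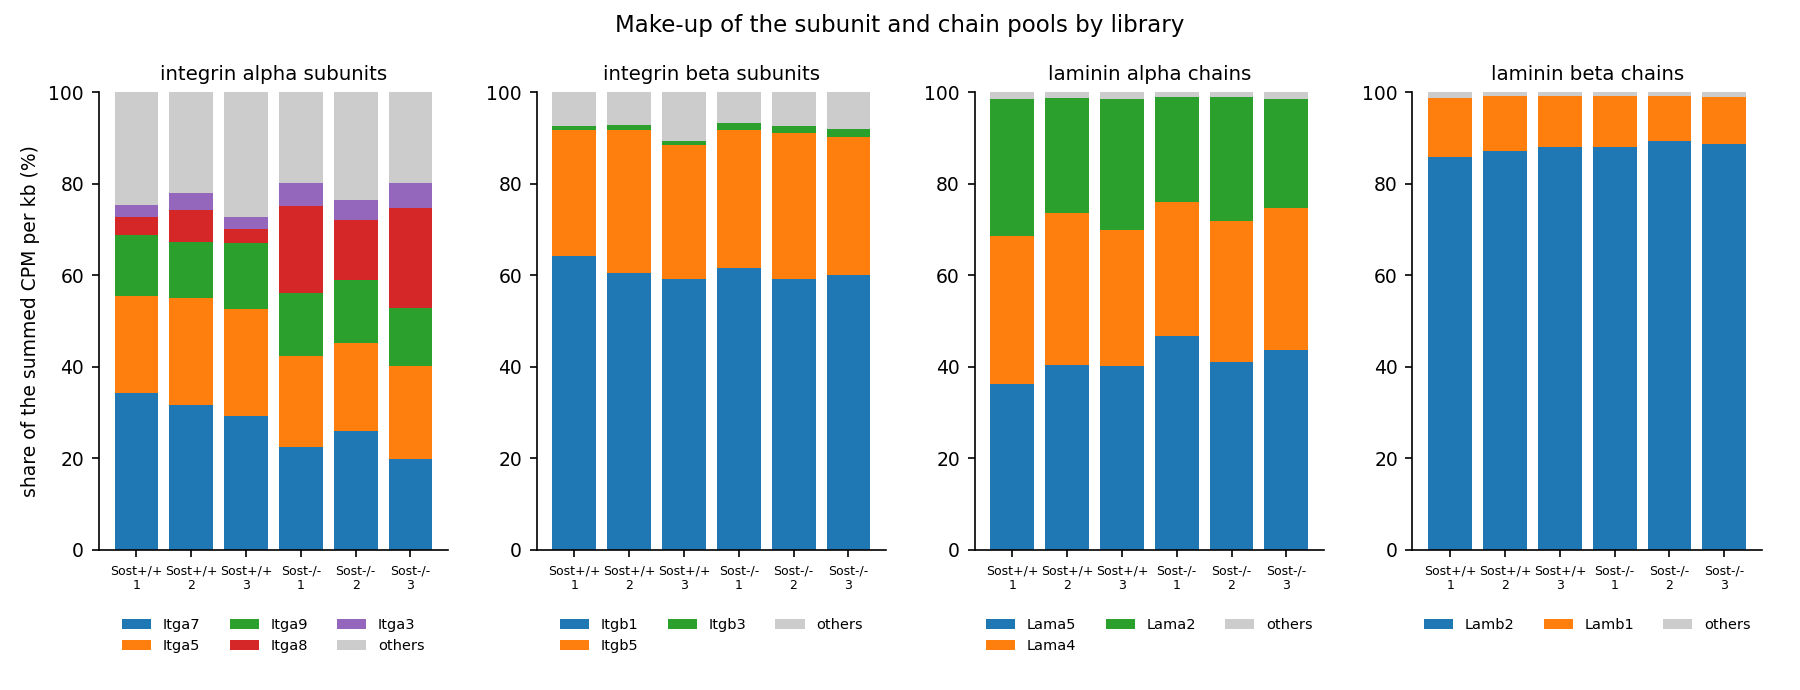
Share of selected genes in the summed CPM per kb (y axis, percent) of the integrin alpha and beta subunits and the laminin alpha and beta chains, in each library (x axis, stacked bars that add to 100%). The remaining genes of each pool are summed in grey as others. Itga8 takes 3.01% to 7.11% of the integrin alpha pool in WT and 13.2% to 22.0% in KO libraries, and Itgb1 takes 59.2% to 64.1% of the integrin beta pool.

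The integrins of leukocytes varied mainly through 1 library. Itgax, the subunit of dendritic cells and macrophages also called CD11c, was at 10.6, 8.52 and 28.1 CPM in WT and 5.47, 11.2 and 8.16 CPM in KO libraries. WT 3 was 2.52 times the next highest library, and the log2 fold change of -0.93 (edgeR adjusted p = 0.262) was -0.22 without it. Itgal, the subunit of LFA-1 on lymphocytes and other leukocytes, was at 9.51, 7.68 and 20.5 CPM against 7.71, 10.02 and 9.62 CPM, and its log2 fold change went from -0.46 to 0.08 without WT 3. Itgae, which pairs with Itgb7 on T cells of epithelia and on some dendritic cells, went from -0.62 to -0.11. Itga4, Itgb2 and Itgb7 also had their highest level in WT 3, at 1.61, 1.38 and 1.27 times the next library, and log2 fold changes of -0.30, -0.19 and -0.18 that became 0.13, 0.07 and 0.0055 without it. Itgam, the subunit of Mac-1 on macrophages and neutrophils, did not show this: it was at 25.6, 23.5 and 30.5 CPM against 25.1, 28.9 and 33.7 CPM. Of its exon bases, 68.7% are shared with the gene model Gm49368 on the same strand, which is not among the genes counted.

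Markers of lymphocytes stood high in the same library. Their summed level over 11 genes was 34.9, 21.9 and 57.2 CPM over the WT libraries against 18.5, 26.2 and 25.3 CPM over the KO libraries. The summed level of the 12 macrophage markers was 1411, 1259 and 1531 CPM against 1142, 1845 and 1519 CPM, where KO 2 and not WT 3 was highest. The part of leukocyte content in these members was not tested. None of the leukocyte subunits passed the edgeR test, and DESeq2 and limma-voom also called 0 of them. By unadjusted p under 0.05 the 4 leukocyte alpha subunits gave 0.

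**Figure D4:**
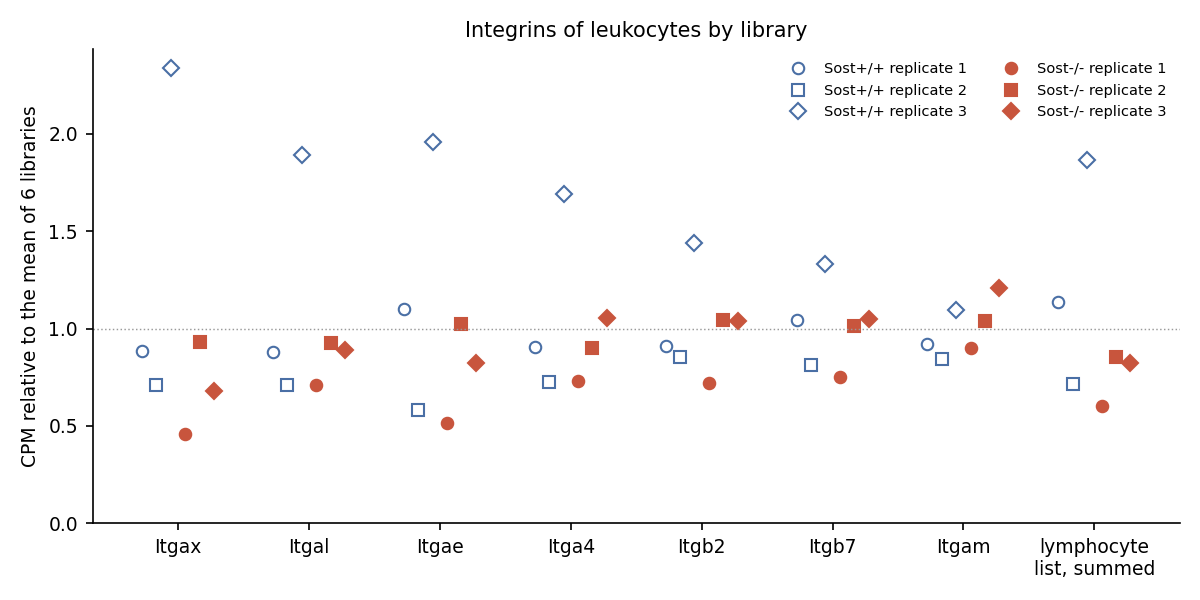
CPM of 7 leukocyte integrin subunits and of the summed lymphocyte markers, each divided by its mean over the 6 libraries (y axis), with 1 point per library. WT 3 (open diamonds) is the highest library in each column except Itgam, where KO 3 is higher.

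Other genes of the same matrix and receptors were read from 4 lists. Over all genes tested, edgeR called 2.18% higher and 0.371% lower, and DESeq2 5.31% and 2.99%. An unadjusted p under 0.05 was found for 11.6% that were higher and 8.62% that were lower. Of 20 basement membrane partners of laminins, 4 rose and 0 fell (DESeq2 5 and 0, unadjusted p 5 and 0, limma-voom 4 and 0), with a median log2 fold change of 0.18. Col4a6 and Col4a5, the collagen IV chains that form a network of their own in smooth muscle basement membrane, rose by 1.38 (SE 0.20, edgeR adjusted p = 0.0151) and 0.46 (SE 0.09, 0.0367) on the log2 scale. Col4a6 was at 23.7, 32.9 and 24.6 CPM in WT and 64.4, 54.6 and 92.2 CPM in KO libraries, with no overlap. Col18a1, the source of endostatin, rose by 1.66 (SE 0.27, edgeR adjusted p = 0.0234), and Smoc1, a secreted calcium-binding protein of basement membranes, by 1.33 (SE 0.17, 0.0119). Without WT 1 edgeR called 0 of this list, without WT 3 it called 2, and without KO 3 it called 1. Over all genes it called 0, 81 and 10 higher in these fits.

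Of 25 other matrix ligands of integrins, 23 were tested, 4 rose and 0 fell (DESeq2 7 and 0, unadjusted p 9 and 1, limma-voom 4 and 0), with a median log2 fold change of 0.25. Nov, also called Ccn3, a matricellular ligand of several integrins, was at 41.1, 87.4 and 42.5 CPM in WT and 253, 136 and 301 CPM in KO libraries. Its libraries stood in the order WT 1, WT 3, WT 2, KO 2, KO 1, KO 3, and it rose by 2.01 on the log2 scale (SE 0.35, edgeR adjusted p = 0.0261). Fbln5, an RGD protein of elastic fibres, rose by 0.90 (SE 0.14, edgeR adjusted p = 0.0192), Ltbp1, which holds latent TGF-beta in the matrix, by 0.68 (SE 0.14, 0.0436) and Thbs2, a thrombospondin, by 0.48 (SE 0.09, 0.0288). Further known ligands of the Itga8 receptor, picked after their values were seen, did not pass: fibronectin, Fn1, gave 0.81 (SE 0.21, edgeR adjusted p = 0.0856, DESeq2 0.0025), and Egfl6, a relative of nephronectin, was at most 0.197 CPM and not tested. In the same list Spp1 gave 0.68 (SE 0.22, edgeR adjusted p = 0.141, DESeq2 0.0410), Tnc 0.27 (edgeR adjusted p = 0.416) and Vtn -0.30 (0.306). Without WT 1, WT 3 or KO 3 edgeR called 0 of this list, and without KO 1 it called 2. Over all genes it called 0, 81, 10 and 313 higher in these fits.

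Inside the cell, 0 of 24 tested genes for integrin activation and adhesion adaptors passed by edgeR in either direction, with a median log2 fold change of 0.06. By unadjusted p under 0.05, 3 were higher and 1 lower, and DESeq2 called 1 higher and limma-voom 0. Over all genes tested, edgeR called 2.18% higher and 0.371% lower, and unadjusted p under 0.05 gave 11.6% and 8.62%. With shares this small, 0 calls among 24 genes do not set the adaptors apart from other genes. The smallest p was that of Tgfb1i1, or Hic-5, a paxillin relative of smooth muscle, with a log2 fold change of 0.68 (SE 0.17, edgeR adjusted p = 0.0840). Of 17 other laminin receptors, including dystroglycan, the sarcoglycans and syndecans, 1 rose and 0 fell (DESeq2 2 and 2, unadjusted p 6 and 2, limma-voom 1 and 0), with a median log2 fold change of 0.14. It was Cspg4, the NG2 proteoglycan of pericytes and smooth muscle, at 47.9, 76.05 and 59.0 CPM in WT and 119, 98.5 and 129 CPM in KO libraries (log2 fold change 0.92, SE 0.17, edgeR adjusted p = 0.0279). Without WT 1, WT 3, KO 1 or KO 3 edgeR did not call it. The summed smooth muscle level was higher in each KO library than in each WT library, as were the genes that rose in these lists. The part of smooth muscle content in these rises was not tested.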

How the data were processed

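Bulk RNA sequencing libraries of 6 mouse aortic roots, 3 in each genotype label, were analysed from the deposited whole-number read counts of 23420 genes. DRAGEN, HTSeq, DESeq2 and mm10 appear in the submitters' processing notes, and the kit was directional per the labels' protocols. Tool versions, annotation release and strand setting: not given in the sources used here. The deposited normalized signal equals those counts divided by DESeq2 size factors (0.891 to 1.09) and served only in 1 alternative. Replicate numbers follow accession order and pair nothing.

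Genes were kept by filterByExpr (minimum count 10, minimum total 15), scaled by TMM and fitted by edgeR 4.0.16 (glmQLFit, then glmQLFTest, R 4.3.3). The p-values were adjusted over 15096 genes by the Benjamini-Hochberg method, with a threshold of 0.05. The common biological coefficient of variation was 0.141. SE is the log2 fold change divided by the square root of F. DESeq2 1.42.0, limma 3.58.1 (voom, and trend on log2 of the normalized value plus 1), other scalings, filters and left-out libraries were alternatives. Left-out libraries under DESeq2 and limma-voom, and levels per smooth muscle marker, were added after seeing the data. Members, lists and tests were chosen with earlier results of these data known. Values per library are given by rule for members that passed and for Itga8, Itgb1, Npnt, Itga7, Itga5, Itgav and the common laminin chains. They are also given for some others outside that rule. Of the members, 1 is counted in the totals and not reported here. Of each list of matrix, adaptor and receptor genes, those that passed are named or, where none did, that of smallest p. Of the cell type lists, not all genes that passed are named. Of 227 list genes 226 were in the table, 3 by synonym.

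Coordinates and exon lengths come from GENCODE M21 (GRCm38), and promoters from RefSeq. No 2 libraries agreed within sampling noise (chi-square per degree of freedom 33.9 to 171). On simulated data of this comparison with 14972 genes, edgeR recovered 26.9%, 88.1% and 95.5% of changes of 0.5, 1 and 2 (log2), and 7 of 147 calls were false. Genes were drawn independently there, without differences in tissue content that many genes of a library share, so these rates need not hold for the real libraries.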

Additional observations from a re-analysis of the deposited data

How the results depend on the processing

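Over the 8 settings that kept all libraries, 277 results for single members kept their direction and side of the threshold, 2 lost the call, 9 gained one and 0 reversed. The count of members called higher was 5. It was 6 with no filter, 7 with DESeq2 and 3 with robust dispersion, where Itga8 and Npnt had edgeR adjusted p of 0.0534 and 0.0511 (ranges over the alternatives 2.6e-04 to 0.114 and 5.4e-04 to 0.118). The count called lower was 0, but 1 with DESeq2 size factors in edgeR, with no filter, with a filter of CPM of at least 1 and with robust dispersion, and 2 with DESeq2, among them Itga7. Over all genes, DESeq2 called 771 higher and 434 lower where edgeR called 329 and 56, and edgeR without a filter called 92 lower. Adaptors called higher were 1 without a filter and 1 with DESeq2. DESeq2 called 7 other matrix ligands higher, and 2 other laminin receptors higher and 2 lower. The cause of these changes was not tested.

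With each library left out in turn, counts called higher ranged from 0 to 313 for all genes, 0 to 6 for members, 0 to 3 for basement membrane partners, 0 to 1 for adaptors, 0 to 4 for other matrix ligands and 0 to 1 for other laminin receptors. Counts called lower ranged from 0 to 37 for all genes and 0 to 1 for members. These fits hold fewer samples. Of the members, 11 genes changed sign in at least 1 of these fits, none of them called with all libraries. Their log2 fold changes ranged from -0.22 to 0.022 (Itga11), -0.54 to 0.13 (Itga4), -0.11 to 0.13 (Itga5), -0.72 to 0.076 (Itgal), -0.00085 to 0.073 (Itgb1), -0.34 to 0.075 (Itgb2), -0.34 to 0.0055 (Itgb7), -0.25 to 0.022 (Lama3), -0.0085 to 0.13 (Lama4), -0.059 to 0.096 (Lamb2) and -0.27 to 0.016 (Lamb3). No paired analysis was possible because the labels give no replicate numbers.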

Other observations

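The steadiest members over the 6 libraries were Lama2 and Itgb1, with coefficients of variation of 3.02% and 4.05% in CPM, and among tested members the most variable were Itga8 (79.2%), Npnt (72.7%) and Itgax (67.8%). The first pair includes the most abundant integrin subunit per kb. Of the 36 tested members, the highest library was WT 3 for 12, KO 3 for 9, KO 1 for 5, WT 2 for 4, WT 1 for 3 and KO 2 for 3.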
